A study of Mus musculus with 10 samples.

Results

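The immunoglobulin and B cell genes of the hippocampus array were followed through 10 probes that carry 7 names: the gamma 2C heavy chain constant region (ENSMUST00000103416), the mu heavy chain constant region (ENSMUST00000103426), Ighm, Cd79a, Cd79b, Ms4a1 and Pou2af1. The probes were every non-control probe of the scanner files with one of these names, 10 of 41174 probes and 7 of the 27376 names on the array, and each was kept apart. The names were chosen because the gamma 2C and mu transcripts were higher in 1 group, so the difference between groups of these 10 probes is given below as a description, without a test. A probe entered the comparison where 3 or more arrays of either group had it well above background, as the scanner software marks it. By that filter all 5 heavy chain probes entered, and 3 of the 5 probes for B cell genes did. Both gamma 2C probes, Cd79a and Pou2af1 entered through the high estradiol group alone.

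Each array read hippocampal RNA of 1 adult mouse of the outbred ICR stock, labelled male. In the high estradiol group (HE, 5 offspring) estradiol valerate, an estradiol ester taken up by mouth, had been given to the mother in corn oil at 100 µg per kg per day from E5.5 to E11.5 of pregnancy. In the control group (NC, 5 offspring) the mothers had been given corn oil alone. Total RNA was labelled with Cy3. The labels give neither litters nor the offspring's genotype at the immunoglobulin loci, so the spread below is that between these animals, some of which may share a dam.

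An antibody is built from heavy and light chains, each with a variable part and a constant part, and the constant part of the heavy chain names the class: mu for IgM, gamma for the IgG subclasses. The constant region genes lie in a row on 1 chromosome, mu first, and B cells and plasma cells are the cells known to make complete chains. Gamma 2C and gamma 2A are alternative forms carried by different mouse strains. On the B cell surface IgM is held by Cd79a and Cd79b, the signalling pair of the B cell receptor. Ms4a1 is CD20, a membrane protein of mature B cells, and Pou2af1 is the coactivator through which octamer factors act on immunoglobulin promoters. Resting brain tissue is known to hold very few B cells.

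The 4 probes of the gamma 2C and mu transcripts are shown because each transcript was read at 2 places and the places can be compared. Each is 60 bases long, 5′ to 3′, as given in the deposited files, with positions on mm9, all on the minus strand of chromosome 12. No letter is in capitals, since none of the 4 shares a run of 15 or more bases with any other probe of the array.
A_51_P311235 (gamma 2C, chr12:114525673-114525732): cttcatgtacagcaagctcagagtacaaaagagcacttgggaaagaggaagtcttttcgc
A_51_P351953 (gamma 2C, chr12:114526499-114526874): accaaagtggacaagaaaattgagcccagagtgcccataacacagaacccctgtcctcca
A_52_P571419 (mu, chr12:114659100-114659159): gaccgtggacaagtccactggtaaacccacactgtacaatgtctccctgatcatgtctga
A_51_P485421 (mu, chr12:114659630-114659689): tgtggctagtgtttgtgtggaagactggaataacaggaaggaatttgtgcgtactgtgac
The position of A_51_P351953 spans 376 bases of the genome for 60 bases of probe, so this probe crosses a gap such as an intron. The Ighm probe, A_52_P358360, lies at chr12:114656861-114656920, downstream of both mu probes, at 2239 and 2769 bases from them. It was designed on the transcript AK088666, which the files also list for A_51_P485421. Farther downstream, the gamma 2C probes lie at −131188 and −130362 bases from the Ighm probe. Whether each probe lies in an exon or in a UTR was not looked up here.

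Of the 10 probes, 3 had arrays that did not overlap between the groups, and in all 3 the HE arrays were the higher: A_51_P311235 for gamma 2C and both mu probes. Over all 30981 probes that entered the comparison, 6.21% had non-overlapping arrays with HE higher and 11.2% with HE lower, and 23.1% passed the test in either direction. Since these probes were chosen on this contrast, nothing is read from the count. Values are log2 processed signals relative to the array's 75th percentile, so that 0 is the level of that percentile, and they are compared between arrays and not between probes.

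Mu was read at more spots than any other of these genes. Probe A_51_P485421 was printed as 10 spots on each array. Its level was −3.58, −4.40, −3.70, −4.18 and −4.31 on NC 1 to NC 5, and −1.49, −1.24, −1.84, −1.30 and −1.12 on HE 1 to HE 5. The lowest HE array lay 1.73 above the highest NC array. The difference was 2.63 ± 0.21 (log2, SE, n = 5 and 5), a fold of 6.21. All 10 arrays were well above background. The spots of an array spread by an SD of 0.06 to 0.18, less than the SD between animals of 0.37 in NC and 0.28 in HE. On NC 1, 9 spots were used.

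**Figure D1:**
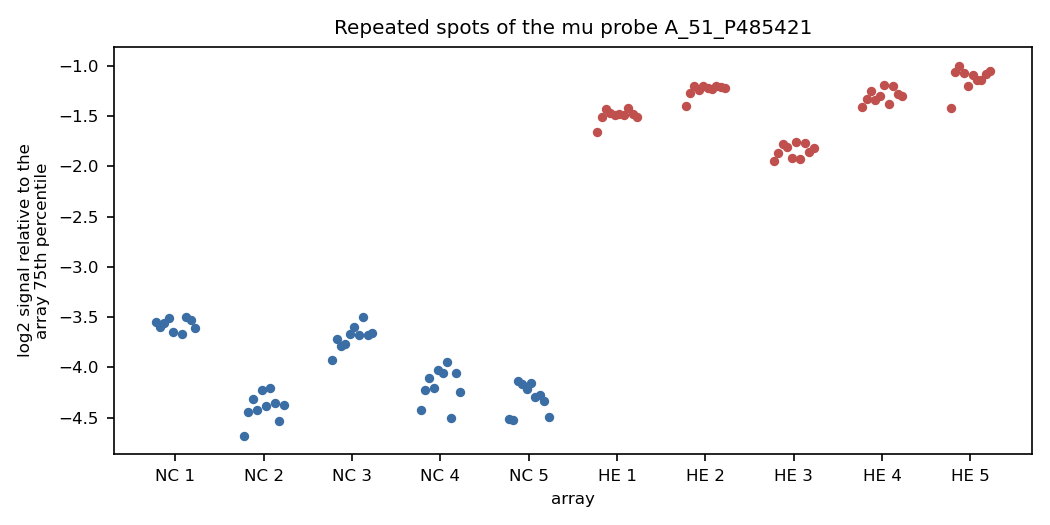
Log2 signal relative to the array's 75th percentile (y axis) of every spot of the mu probe A_51_P485421 used on each of the 10 arrays (x axis), 1 point per spot. All spots of the HE arrays lie between −1.95 and −1, above all spots of the NC arrays, which lie between −4.68 and −3.50.

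The second mu probe, A_52_P571419, behaved alike at a different place of the transcript. Its level was 0.18, −1.24, −0.68, −1.56 and −1.74 on NC 1 to NC 5, and 1.98, 2.21, 1.44, 2.14 and 2.25 on HE 1 to HE 5. NC 1 was the highest control and HE 3 the lowest HE array, 1.26 apart. The difference was 3.01 ± 0.38 (log2, SE, n = 5 and 5), a fold of 8.08, and the controls spread more (SD 0.78) than the HE arrays (SD 0.33). In processed signal, the controls ran from 289 to 1020 and the HE arrays from 3090 to 6080. HE 3 was the lowest HE array in both mu probes. After the group means were subtracted, both mu probes had a correlation of 0.88 over the 10 arrays, a description of probes that read the same RNA samples.

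The log2 difference between both mu probes within an array varied little over the HE arrays, with an SD of 0.08 and a range of 3.28 to 3.47. Over the NC arrays it varied more, with an SD of 0.48 and a range of 2.57 to 3.75. Its sign and size depend on the probes and are not read.

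The Ighm probe, at the downstream end of the mu gene, showed a far smaller difference. Its level was 0.59, 0.36, 0.57, −0.04 and 0.42 on NC 1 to NC 5, and 0.79, 0.39, 0.78, 1.16 and 1.30 on HE 1 to HE 5. HE 2 lay among the controls and the other 4 HE arrays above them. The difference was 0.50 ± 0.20 (log2, SE, n = 5 and 5), a fold of 1.41. All 10 arrays were well above background, with processed signals of 997 to 3150.

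The probes of the mu gene thus differed in the size of their change. Since the mu probes were chosen because they were higher in HE, this is a description without a test. Within groups the Ighm probe followed the mu probes loosely, with correlations of 0.41 and 0.42 over 10 arrays. Which transcript form each probe reads was not tested.

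Gamma 2C was read by a pair of probes that gave different pictures. Probe A_51_P311235 gave −8.69, −8.15, −8.25, −8.03 and −8.60 on NC 1 to NC 5, and −3.27, −3.01, −2.96, −2.55 and −1.77 on HE 1 to HE 5. None of the 5 NC arrays had it well above background, and all 5 HE arrays did. The NC processed signals were 2.18 to 3.92 and those of HE 131 to 375. The measured means were −8.34 and −2.71, a difference of 5.63 ± 0.29 (log2, SE). Because the NC values are only bounds, the fold is given against the lowest signal that was well above background on each NC array: HE was at least 12.1-fold higher. 

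The second gamma 2C probe did not show that gap. A_51_P351953 gave −5.92, −6.37, −6.69, −5.87 and −5.35 on NC 1 to NC 5, and −5.38, −4.90, −5.47, −5.53 and −5.09 on HE 1 to HE 5. It was well above background on 2 NC arrays and on 5 HE arrays. NC 5 lay above 3 of the HE arrays, so the groups overlapped. The difference was 0.77 ± 0.26 (log2, SE, n = 5 and 5). The files give partly different accessions for both probes, AK007918 being common to them.

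**Figure D2:**
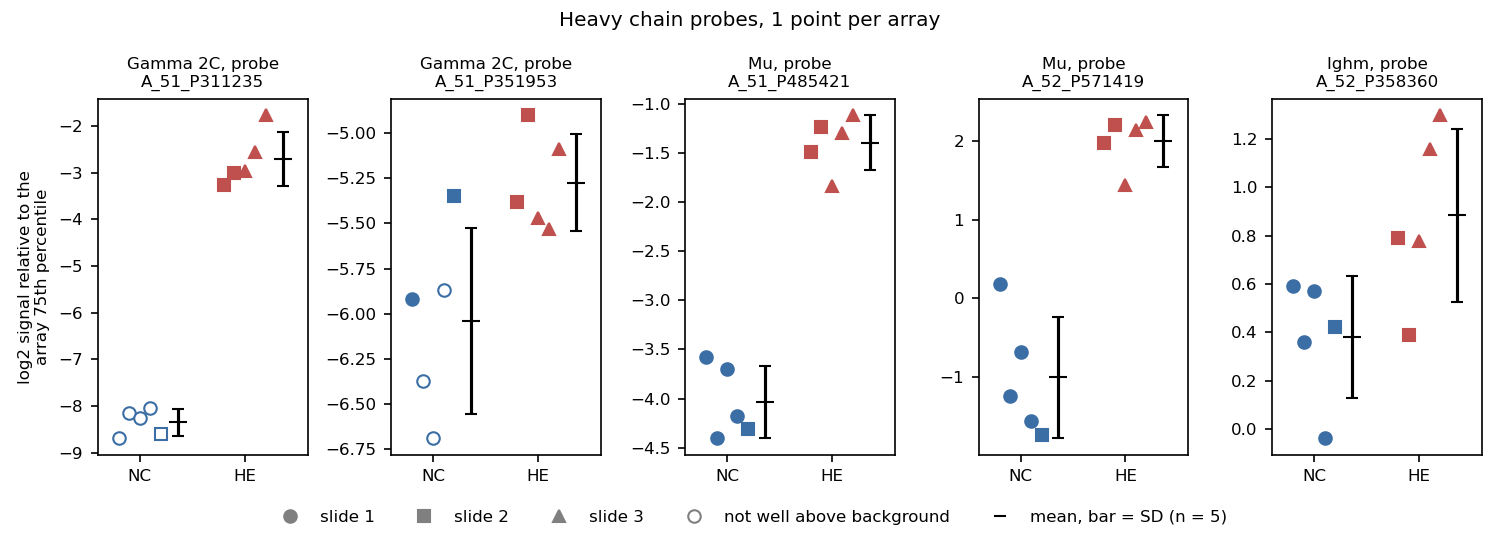
Log2 signal relative to the array's 75th percentile (y axis, a separate range per panel) for the 5 heavy chain probes in NC and HE (x axis), 1 point per array, with the mean and SD (n = 5); shapes mark slides and open symbols arrays not well above background. In the gamma 2C panel of A_51_P311235 and in both mu panels the HE arrays lie wholly above the NC arrays, and in the other gamma 2C panel and in the Ighm panel the groups overlap.

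The B cell receptor partners showed no such gap between the groups. Cd79a was near background: −5.86, −6.18, −6.51, −6.85 and −5.96 on NC 1 to NC 5, and −5.76, −5.71, −6.43, −6.77 and −6.53 on HE 1 to HE 5. It was well above background on 2 NC and 4 HE arrays, and the groups lay over each other with a difference of 0.03 ± 0.28 (log2, SE, n = 5 and 5).

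Cd79b was well above background on all 10 arrays. Its level was −5.44, −4.35, −4.75, −4.45 and −4.02 on NC 1 to NC 5, and −5.77, −5.35, −4.88, −4.93 and −4.27 on HE 1 to HE 5. The difference was −0.44 ± 0.35 (log2, SE, n = 5 and 5), with HE 1 the lowest array and NC 5 the highest. After group means were subtracted, its correlation with the mu probes was −0.58 and −0.37 over 10 arrays.

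Pou2af1 gave −6.13, −6.32, −6.33, −6.02 and −5.16 on NC 1 to NC 5, and −5.86, −5.57, −6.15, −6.46 and −6.19 on HE 1 to HE 5. It was well above background on 2 NC and 5 HE arrays. NC 5 was the highest array, and the difference was −0.05 ± 0.26 (log2, SE, n = 5 and 5).

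Ms4a1 was at or under background with both of its probes. A_51_P277683 was well above background on no array and ran from −8.54 to −6.98 in NC and from −9.28 to −6.76 in HE. A_52_P483336 was well above background on NC 5 alone, at −5.62, with the other NC arrays at −8.87 to −6.59 and the HE arrays at −8.86 to −7.03. No fold is given for either probe.

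**Figure D3:**
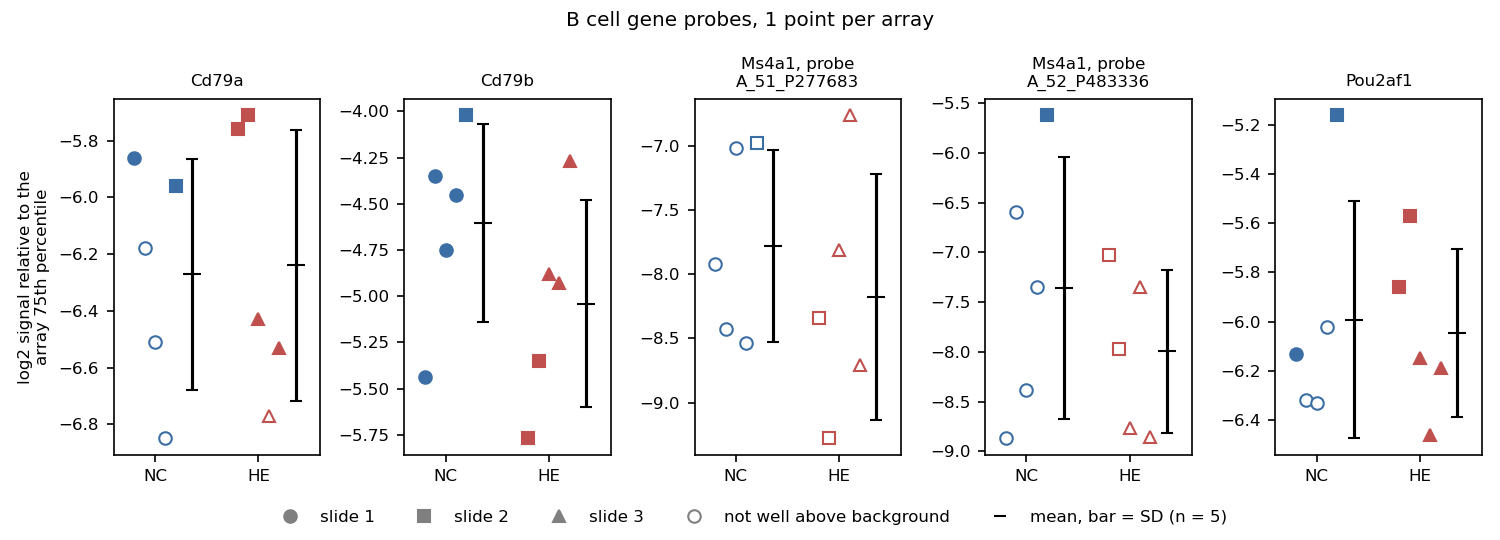
Log2 signal relative to the array's 75th percentile (y axis, a separate range per panel) for the 5 probes of Cd79a, Cd79b, Ms4a1 and Pou2af1 in NC and HE (x axis), 1 point per array, with the mean and SD (n = 5); shapes mark slides and open symbols arrays not well above background. In every panel the groups overlap, and both Ms4a1 panels are almost all open symbols.

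The arrays lay on 3 slides, each scanned as 1 batch. Slide 1 had only controls, NC 1 to NC 4, and slide 3 only HE 3 to HE 5, so that slide 2, with NC 5 beside HE 1 and HE 2, was the 1 slide with both groups. There, the difference between the mean of both HE arrays and NC 5 was 5.46 for A_51_P311235, 2.95 for A_51_P485421 and 3.84 for A_52_P571419. These 3 were about as large as over all arrays, or larger. The same comparison gave 0.16 for the Ighm probe and 0.21 for the other gamma 2C probe, both smaller than over all arrays, and −1.54 for Cd79b. It gave −0.55 for Pou2af1 and 0.22 for Cd79a.

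Other properties of the arrays were spread unevenly over the groups and slides, without following either. Xist, which is transcribed in female cells, stood at 3.21 to 4.45 on the slide 1 controls and on HE 1, HE 2 and HE 3, while the Y-linked Ddx3y stood at 1.09 to 1.39 on NC 5, HE 4 and HE 5. The pattern of 7 arrays was thus not that of their male label. With this pattern as a covariate the differences were 5.55 for A_51_P311235, 2.62 for A_51_P485421 and 3.05 for A_52_P571419. Alb, a liver transcript, stood at 0.50, 0.48 and −0.20 on NC 1, NC 2 and NC 4, and from −8.77 to −4.80 on the other arrays. Without those 3 controls the differences of the same probes were 5.71, 2.61 and 3.22.

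No other probe of the immunoglobulin loci passed the test as higher in HE. The array held 173 further probes placed in or named for the heavy, kappa and lambda loci, among them Adam6a and Adam6b, which are no antibody genes, and of the 173 96 were well above background on no array and 45 entered the comparison. Of these 45, 0 were higher and 2 were lower in HE at an adjusted p under 0.05 (limma, Benjamini-Hochberg over all 30981 probes), beside 7.7% and 15.5% of all probes. At an unadjusted p under 0.05 they were 1 and 6, beside 4427 higher and 7498 lower of all 30981 probes. With slide as a fixed block 0 of the 45 were called, beside 159 higher and 91 lower of all probes. The median difference of the 45 was −0.127, beside −0.055 over all probes. Of the probes placed by position in the light chain loci, 20 in kappa and 3 in lambda entered. Of them 0 were called in either direction (at an unadjusted p under 0.05, 1 kappa and 1 lambda probe, both lower). Some of the kappa probes carry no description, so whether they read light chain RNA is not known. The kappa differences ran from −0.42 to 0.90 and the lambda differences from −0.60 to 0.35.

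Both lower probes read variable parts of the heavy chain. A_52_P653565, an Igh-VJ558 variable region, was called lower (adjusted p = 0.0128, limma), but it was well above background on 3 NC arrays and 1 HE array. It thus entered through the group where it was higher, and its HE level is mostly a background value, so no size is given. A_52_P532769, the variable region of an IgM heavy chain (M20831), was at −4.65, −2.75, −5.23, −3.54 and −2.70 on NC 1 to NC 5 and at −6.06 to −5.26 in HE. The difference was −1.97 (SE 0.48, adjusted p = 0.0197, limma). The next by p were probes without a description. A_52_P387844 of the heavy chain locus (adjusted p = 0.0523) was also well above background on 3 NC arrays and 1 HE array. A_52_P651784 of the kappa locus differed by −0.33 (adjusted p = 0.0744).

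Among the other constant region genes, no probe passed the test. Gamma 1 was read by A_51_P461067, at −7.68 in NC and −6.40 in HE, a difference of 1.27 (adjusted p = 0.126, limma). With 1 NC array and 4 HE arrays well above background, it entered through HE alone. Its NC level is mostly a background value, so 1.27 is not read as a size. Its neighbour A_52_P1054013, also on 1 NC and 4 HE arrays, differed by 0.27 (adjusted p = 0.631). A heavy chain probe beside them, A_51_P122752, was well above background on 5 NC and 5 HE arrays. It differed by 0.01 (adjusted p = 0.981). Ighg3, for gamma 3, differed by 0.16 (adjusted p = 0.550), and the probe for ENSMUST00000103418, next to gamma 2C along the locus, by −0.10 (adjusted p = 0.953). A probe at −2584 bases from the Ighm probe, described in the files as the membrane form of the delta constant region, differed by −0.87 (adjusted p = 0.101).

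**Figure D4:**
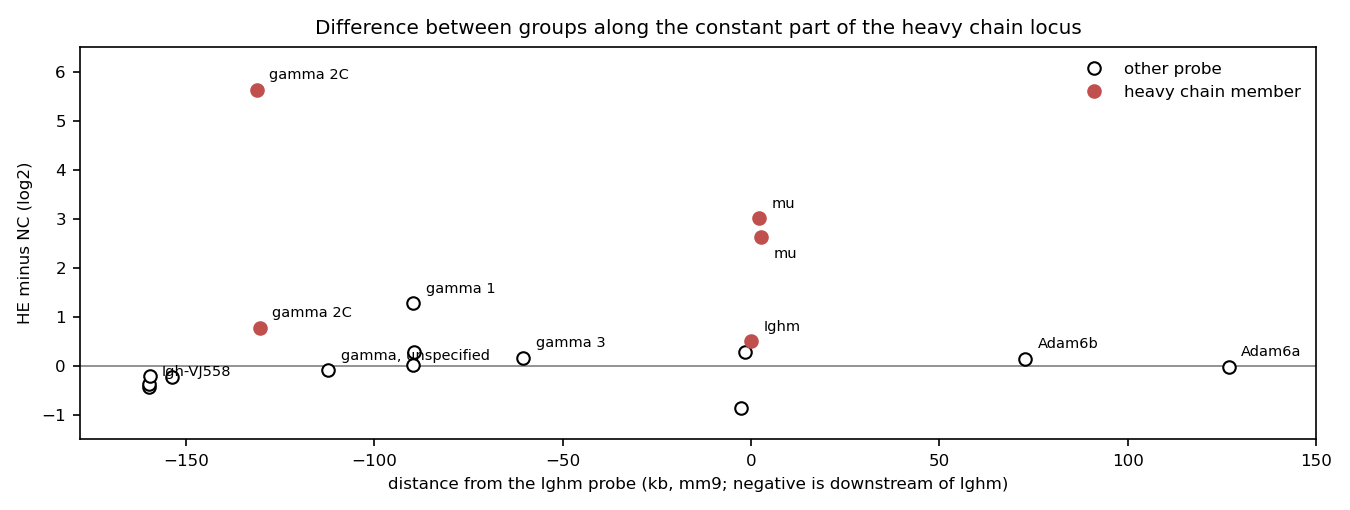
Difference in mean log2 signal, HE minus NC (y axis), of the entering probes in the constant part of the heavy chain locus against their distance in kb from the Ighm probe (x axis, mm9, negative is downstream); filled points are the 5 heavy chain probes described and open points are other probes. The filled points at 5.63, 3.01 and 2.63 stand above every open point, the highest of which is a gamma 1 probe at 1.27. Their transcripts were chosen for being higher in HE, so nothing is read from this place. The point at 5.63 is measured against NC signals not well above background. The gamma 1 probe was well above background on 1 NC and 4 HE arrays.

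The cell types that make or carry antibody were read through lists of other genes. Of 33 B cell genes, 19 entered. Among them 1 was higher and 3 were lower in HE, beside 7.71% higher and 10.5% lower of the 15467 genes tested, with a median difference of 0.051 against −0.014 for all genes. With slide as a fixed block, no gene of this or the following lists was called. In that setting only 159 higher and 91 lower calls were left among all 30981 probes, so nothing is read from it. The shares of 7.71% and 10.5% of all genes are the background of each list that follows. For counts at an unadjusted p under 0.05 it is 4427 higher and 7498 lower of all 30981 probes. Cd180, a receptor of the toll-like family on B cells, was lower with probe A_52_P237087 (adjusted p = 0.00536, limma), which was well above background on 4 NC and 2 HE arrays and so entered through the group where it was higher. Its other entering probe, A_52_P258617, differed by 0.15 (adjusted p = 0.896). Cd72, an inhibitory co-receptor, was higher by 1.16 (adjusted p = 0.0125), with 3 NC and 5 HE arrays well above background, but with normexp background correction the sign turned, to −0.96. Cd83 and Tnfrsf13c, the receptor for the survival factor BAFF, were the other lower genes, at −1.40 and −0.88. Pax5, the factor that keeps B cell identity, was well above background on no array. The summed level of the list was 6 to 12.9 times the 75th percentile on the NC arrays and 4.85 to 5.36 on the HE arrays. Much of this sum was Cd83, at 1.84 to 10 in NC and 1.17 to 2.52 in HE. Without it, in a sum chosen after seeing the data, the groups overlapped, at 2.65 to 4.16 in NC and 2.80 to 4.19 in HE. In such bulk tissue, fewer cells of a type and less RNA per cell cannot be told apart.

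The plasma cell list, the secretory stage that makes most antibody, gave 1 higher and 1 lower gene of 16, with a median of −0.125. Fkbp11, a folding factor of the endoplasmic reticulum, fell by 0.69 on the log2 scale (adjusted p = 0.0156, limma), and Pim2, a survival kinase, was higher by 0.36 (adjusted p = 0.0421). Jchain, which joins IgM into polymers, differed by −0.74 (adjusted p = 0.134) and Mzb1, a chaperone of IgM assembly, by −0.18 (adjusted p = 0.461). The summed level of the list was 29.3 to 34.6 in NC and 24.7 to 34.0 in HE.

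Signalling downstream of the receptor gave 2 higher and 3 lower of 28 genes, with a median of −0.109. Blnk, the adaptor of the B cell receptor, was higher by 0.71 (adjusted p = 0.0392, limma) and Inpp5d by 0.35 (adjusted p = 0.0488). Rasgrp3 fell by 0.52, Malt1 by 0.44 and Cd81 by 0.32 on the log2 scale. Bcl10 differed by 0.09 with its brightest probe (adjusted p = 0.488), but its other entering probe differed by −0.73 (adjusted p = 0.0211, limma). Of 13 octamer and B cell transcription factors, 0 were higher (1 at an unadjusted p under 0.05) and 2 lower: Ikzf1 fell by 0.75 (adjusted p = 0.0152) and Pou2f1, an octamer factor, by 0.39 (adjusted p = 0.0249). Of 10 survival and homing factors, 0 were higher by their brightest probe (1 at an unadjusted p under 0.05) and 1 was lower. The lower gene was Tnfsf13b, which is BAFF itself, at −1.10 (adjusted p = 0.0284). Cxcl12 differed by −0.25 with its brightest probe (adjusted p = 0.341). Its other entering probe, A_52_P685021, was higher by 0.74 and passed the test (adjusted p = 0.0113, limma). Of 7 receptors for antibody, 0 were called. At an unadjusted p under 0.05, 4 were lower and 0 higher, beside 7498 lower and 4427 higher of all 30981 probes. The median of the 7 receptors was −0.360, with Fcer1g at −0.36 (adjusted p = 0.0538) and Fcgr4 at −0.63 (adjusted p = 0.0611).

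**Figure D5:**
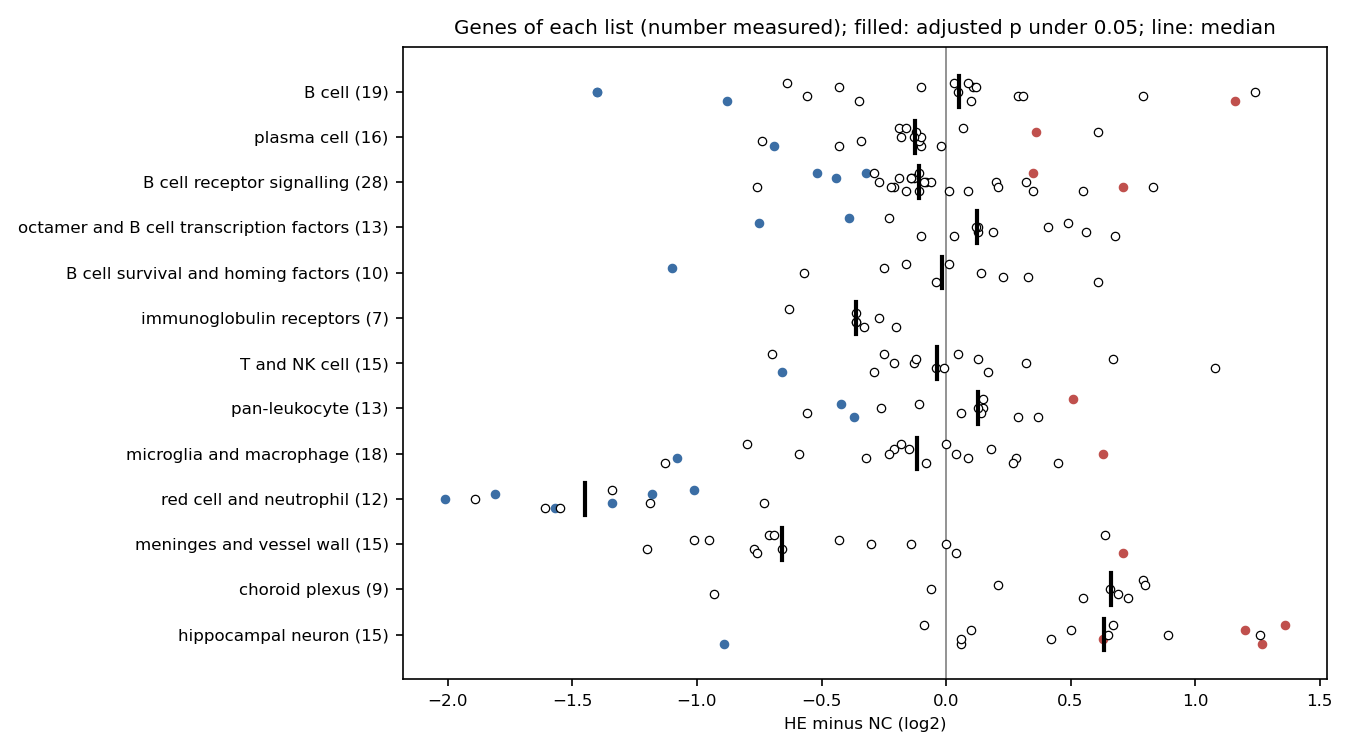
Difference in mean log2 signal, HE minus NC (x axis), of each measured gene in 13 lists (y axis, number of genes in brackets), 1 point per gene; filled points have an adjusted p under 0.05 (red higher, blue lower) and the bar is the list median, in the analysis without slide as a block. The B cell and plasma cell medians lie near 0, at 0.051 and −0.125, and the red cell and neutrophil median lies at −1.449.

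Markers of other cells moved between the groups as well, and their part in the heavy chain values was not tested. Red cell and neutrophil genes were lower in HE in 6 of 12 (10 at an unadjusted p under 0.05), higher in 0 (0 unadjusted), with a median of −1.449: Hba-a1, an alpha globin, fell by 1.18 on the log2 scale (adjusted p = 0.0457, limma) and Mpo, of neutrophil granules, fell by 1.34 (adjusted p = 0.0352). Their summed level was 120 to 318 in NC and 72.7 to 135 in HE. Of 15 T and NK cell genes, 0 were higher (0 unadjusted) and 1 was lower, Lat at −0.66; Cd3e of the T cell receptor differed by 0.32 (adjusted p = 0.427). Of 13 pan-leukocyte genes, 1 was higher, Laptm5 at 0.51, and 2 were lower, Lcp1 at −0.37 and Cd52 at −0.42. Ptprc, or CD45, differed by 0.14 (adjusted p = 0.521), and another of its probes by −0.38 (adjusted p = 0.194). A further Ptprc probe, well above background on 0 NC and 4 HE arrays, was higher in HE but not called (adjusted p = 0.17). Of 18 microglia and macrophage genes, Cx3cr1 was higher by 0.63 and Lyz2 was lower at −1.08, while Aif1 differed by −0.08 (adjusted p = 0.742). Of the 15 meninges and vessel wall genes, 1 was higher (2 at an unadjusted p under 0.05) and 0 were lower (3 unadjusted), with a median of −0.657. The higher gene was Acta2, of smooth muscle, at 0.71 with its brightest probe (adjusted p = 0.00933), while its other 3 entering probes differed by 0.16, −0.03 and −0.28 and passed no test. Of 9 choroid plexus genes, 0 were called (0 unadjusted), with Ttr at 0.80 (adjusted p = 0.686).

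On the tissue label, all 15 hippocampal neuron genes were well above background on all 10 arrays. Of these, 4 were higher and 1 lower in HE, beside 7.71% and 10.5% of all genes. The higher genes included Pou3f1 at 1.36 (adjusted p = 0.00969, limma) and Calb1 at 0.63 (adjusted p = 0.0258). The lower gene was Prox1 at −0.89 (adjusted p = 0.0475). The summed level of the 15 genes was 181 to 408 in NC and 416 to 491 in HE, without overlap. This sum is of unlogged signal, so the brightest genes weigh most. Of these, Nrgn went from 6.52 in NC to 7.72 in HE (log2, adjusted p = 0.0291, limma), while Snap25 differed by 0.06 (adjusted p = 0.719). The sum without Nrgn was not computed, so it is not read as a level of all 15 genes.

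The genes most like the heavy chain probes from array to array, after group means were subtracted, were none of the B cell list. Ccl19, of the survival and homing list, was among them. Over 10 arrays and 25859 probes searched, A_52_P571419 was closest to Krt80 (r = 0.97), Garnl3 (r = 0.96) and both probes of Ccl19 (r = 0.96), a chemokine that draws B and T cells. A_51_P485421 was closest to Mynn (r = 0.97), then Tcap, Myh3 and Tmem215 (r = 0.91 each). The Ighm probe was closest to Adgrf5 (r = 0.93), and Cd79b to Dipk1a (r = 0.97). Correlations this high are the top of a long search over few arrays that share depth and slide, and they are given as a description only.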

How the data were processed

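Hippocampal RNA of 10 mice was read on 1-colour Agilent arrays, and the submitters' processing notes name Agilent Feature Extraction 10.7 as the tool the authors used. The deposited scanner files hold intensity, background-subtracted within each array per the file headers. The deposited value table holds log2 values of unstated making; they matched quantile-normalized log2 processed signals (median difference 0.011), so scale and direction are known, and column medians were 7.0334 to 7.0337. 

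Non-uniform and outlier spots (68 to 129 per array) were left out; 0 were saturated. Spots were averaged per probe, after log2 and subtraction of each array's 75th percentile (899.4 to 1289 in signal). Probes entered if well above background (70.3% to 78.9% per array) on at least 3 of 5 arrays of a group. limma 3.58.1 in R 4.3.3 (lmFit, eBayes, two-sided) was fitted on all 30981, adjusted by Benjamini-Hochberg, threshold 0.05. A gene was represented by its brightest entering probe; 27668 probes were named by accession through RefSeq (GRCm38.p6). A bound sets the HE mean against the mean, per NC array, of the higher of the lowest signal well above background and the probe's own.

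The members and lists were chosen with earlier results of these data known. Named list genes were the 2 of smallest p per list plus a fixed set (Pax5, Jchain, Mzb1, Cd3e, Ptprc, Aif1, Hba-a1, Ttr, and 1 gene not reported here), with the 4 other immunoglobulin probes of smallest p; other genes and locus probes were named after their values were seen. On simulated data of 30918 probes, differences of 0.5 were recovered in 16%, of 1 in 70% and of 2 in 90% of cases. The simulation changed 200 probes and had no slide effect, while 23.1% of probes were called in the data. Its rates are therefore not those of the real comparison, and a small difference that was not called may have been missed. Array number limits precision. Replicate numbers did not pair the arrays. Alternatives were slide, replicate block, background correction, normalization, filter, variance model, Xist pattern, and arrays left out.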

Additional observations from a re-analysis of the deposited data

Results flagged for a closer look

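Of 80 groups of 5 arrays examined, 5 held an array far from the other 4, about what chance gives at 1 in 20. Among the B cell genes described, Pou2af1 stood at −5.16 on NC 5, with the other controls at −6.33 to −6.02. Ikzf1 stood at −4.19 on HE 5, with the other HE arrays at −4.77 to −4.61. Lcp1 stood at −1.10 on NC 1 (others −0.81 to −0.71) and at −1.49 on HE 2 (others −1.17 to −1.04). Clic6, of the choroid plexus, stood at 3.2 on NC 3, with the other controls at 0.43 to 1.14. No heavy chain probe was among them.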

How the results depend on the processing

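Both mu probes and A_51_P311235 stayed higher in HE under every alternative run. They were chosen for being higher, and their arrays did not overlap, so leaving arrays out could not turn the sign. The filter, variance model and replicate block left their differences unchanged, so nothing is read from this. With normexp background correction A_51_P311235 came to 0.51 and A_51_P485421 to 0.96. The offset of 50 in that correction exceeds every NC processed signal of A_51_P311235 (2.18 to 3.92). Under the same correction A_51_P351953 turned to −1.13 and Cd79a to −1.37, and Pou2af1 came to −1.46 and Cd79b to −1.34; Cd72 turned to −0.96. Slide as a fixed block, and slide 2 alone, gave 3.84 for A_52_P571419, 0.16 for Ighm, 0.21 for A_51_P351953, −1.54 for Cd79b and −0.55 for Pou2af1. No difference is given for Ms4a1, whose probes were at background. Clic6 turned to −0.10 without NC 1, NC 2 and NC 4.

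Over all probes, the 2385 higher and 4787 lower calls became 159 and 91 with slide as a fixed block, 0 and 0 on slide 2 alone (10919 at an unadjusted p under 0.05), and 1592 and 4204 with a replicate block. Normexp gave 2329 and 12044, with a median shift of −0.418 and 16.2% of calls higher, against 33.3%. Quantile normalization gave 3605 higher calls (48.4% of calls) while 3613 (48.7%) came from the deposited log2 values; without NC 1, NC 2 and NC 4 there were 1341 and 1563. Of the 45 other immunoglobulin probes (0 higher, 2 lower), slide as a fixed block left 0 lower, slide 2 alone 0, all 10 arrays well above background 1, and the set without NC 1, NC 2 and NC 4 gave 1; normexp gave 31 lower and no filter 16 lower; the replicate block gave 1 higher, and quantile normalization and the deposited log2 values gave 2 higher each. Over the related lists, 7 higher and 20 lower calls became 0 and 0 with slide as a fixed block or slide 2 alone, 3 and 9 with the replicate block, 12 and 75 with normexp, and 4 and 9 without NC 1, NC 2 and NC 4; quantile normalization and the deposited log2 values gave 11 lower, and no filter 3 higher. The cause of these moves was not tested.

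Leaving out 1 array in turn gave 1258 to 2605 higher and 2635 to 4927 lower calls over all probes, the lowest without NC 2, 0 to 1 higher and 1 to 4 lower other immunoglobulin probes, and 3 to 8 higher and 6 to 31 lower list genes, with 6 lower without NC 2, NC 5 or HE 1 and 31 without NC 1. The differences ran from 5.39 to 5.77 for A_51_P311235, 2.83 to 3.31 for A_52_P571419, 2.54 to 2.75 for A_51_P485421, 0.60 to 0.94 for A_51_P351953, 0.40 to 0.62 for Ighm, −0.11 to 0.16 for Cd79a, −0.17 to 0.15 for Pou2af1, and −0.65 to −0.26 for Cd79b. Of the named genes, Cd72 (higher), Cd180 (A_52_P237087), Fkbp11, Ikzf1, Cx3cr1, Lat, Acta2 and Pou3f1 kept their call without any 1 array. Lyz2, Calb1, Hbb-bt, Pou2f1, Rasgrp3, Tnfsf13b, Pim2, Laptm5, Mpo, Lcp1 and Cd81 lost it without at least 1. The other genes named as called were not followed in this way. Same-numbered arrays of the groups correlated at −0.068 to 0.153, so the numbers did not pair them. Signal over background limits gamma 2C in NC, Cd79a, Ms4a1 and Pou2af1.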
